A study of Rattus norvegicus with 12 samples.

Results

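The microRNAs (miRNAs) carried by the sperm of corn oil-fed and lard-fed male rats were compared in 6 samples, 3 for each diet, out of the 12 samples of the study. All 6 came from male Sprague Dawley rats on a high-fat diet, whose fat came mainly from lard (rats 9, 10 and 11) or mainly from corn oil (rats 18, 19 and 20) and was eaten before and during puberty. By the methods the males were moved to chow when they were mated, so the sperm were collected after the high-fat diet had ended. The labels do not give the age of these males. Sperm were taken from the cauda epididymis and vas deferens after mating and treated with a lysis buffer against somatic cells. The other 6 samples are mammary glands of 50-day-old daughters. No sperm sample from males on the control diet was analysed here, so that a difference has no direction relative to ordinary feed. The sample labels name single animals and the description of the series speaks of pooled RNA, and if the samples are pools, the spread between them is not that between animals.

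miRNAs are short RNAs that guide Argonaute proteins to messenger RNAs with a matching site, mostly at the seed near the 5′ end of the miRNA, and so lower the output of their targets. Mature sperm transcribe little or nothing. Their small RNAs are left from spermatogenesis in the testis or are gained from vesicles released by the epithelium of the epididymis, and they can enter the oocyte at fertilization. Paternal diet is one of the conditions under which the small RNAs of sperm have been studied.

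Each miRNA assay was read as a threshold cycle (Ct), the cycle of the polymerase chain reaction at which its fluorescence crosses a threshold, so that 1 cycle earlier stands for about 2 times more template. Each sample filled 2 cards of 384 wells. After 12 control wells were left out, 756 assays remained, and those with a Ct under 35 in all 6 sperm samples were kept. The first card held 226 and the second 174 of these 400 assays. Of the other 356, 144 were under 35 in some of the rats and 212 in none. The last kept assay reached a Ct of 34.96 in its latest rat and the first one left out 35.05, and 8 kept assays had a latest Ct of at least 34. The wells are numbered and carry no miRNA names in the files, so assays are given by well number and no sequence can be printed for them. Marker miRNAs of sperm or of epididymal epithelium, blood and muscle were for this reason not analysed here, and the part of other cells in the results was not tested.

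The number of detected assays was close in both diets. On the first card 266, 277 and 273 assays had a Ct under 35 in lard-fed rats 9, 10 and 11, and 274, 273 and 275 in corn oil-fed rats 18, 19 and 20. On the second card the numbers were 198, 207 and 205 against 211, 209 and 207. The diets overlapped on the first card and touched at 207 on the second. The differences, corn oil minus lard, were 2.00 and 5.67 assays (two-sided exact permutation test, p = 0.8 and 0.2). Without rat 9 these differences were -1 and 3. No assay was under 35 in all rats of a diet and in no rat of the other, while 6 were under 35 in all lard-fed rats and at most 1 corn oil-fed rat, and 8 the other way round. Of the 144 assays detected in part of the rats, 53 were found in more lard-fed and 70 in more corn oil-fed rats. Among the 54 assays missing from a single rat, 24 lacked rat 9 and 13 rat 11, against 1 to 7 for each of the other rats. In whole sperm samples, fewer cells of a type and less RNA per cell cannot be told apart.

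The median Ct of the kept assays, which measures the overall amount of template on a card, did not separate the diets. On the first card it was 26.1, 24.0 and 24.4 in rats 9, 10 and 11 on lard and 24.6, 24.6 and 23.8 in rats 18, 19 and 20 on corn oil. Rat 9 was the latest by more than a cycle, and the other lard-fed rats lay within the range of the corn oil-fed rats. The second card gave 27.6, 25.9 and 26.9 on lard and 26.2, 26.7 and 26.7 on corn oil, again with rat 9 latest. Corn oil minus lard, the means differed by -0.511 and -0.297 cycles (two-sided exact permutation test, p = 0.6 and 0.7, where 3 samples against 3 cannot go below 0.1). Without rat 9 these differences were 0.0987 and 0.0984 cycles. The interquartile range of Ct over the kept assays, the width of the profile, was 5.28 to 5.59 cycles on lard and 5.40 to 5.68 on corn oil on the first card (exact permutation test, p = 0.4). On the second card it was 5.20 to 5.83 on lard and 5.05 to 5.17 on corn oil, without overlap (exact permutation test, p = 0.1), and the difference of -0.305 was -0.101 without rat 9 and turned to 0.208 when assays under a Ct of 32 were taken.

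The control wells were placed in the profile by their rank among the kept assays. Each card has 1 control assay that fills 4 wells, and 2 reference wells, called here the earlier and the later one. No file or label used here names these wells as controls, and their identity was taken from an earlier analysis of the same values. The 4-well assay stayed near the top of the profile: in every rat 0.885% of the kept assays of the first card crossed earlier than it, with 0% to 2.30% on the other card. The later reference well of the first card had 71.2%, 45.6% and 34.1% of the kept assays ahead of it in lard-fed rats 9, 10 and 11, and 34.1%, 26.1% and 29.6% in corn oil-fed rats 18, 19 and 20. It thus stood higher in the profile of corn oil-fed rats, and touched the lard range at 34.1%. Its counterpart on the second card had 60.9%, 31.6% and 21.8% ahead of it on lard and 21.3%, 17.2% and 15.5% on corn oil, without overlap. For the earlier reference well the shares were 17.3%, 8.85% and 6.64% on lard and 4.87%, 1.77% and 3.98% on corn oil on the first card, also without overlap. On the second card they were 9.20%, 7.47% and 6.32% against 5.75%, 6.32% and 3.45%. Of the 14 per-sample measures compared, the reference ranks had exact permutation p-values of 0.1 or 0.2, and no measure had a Benjamini-Hochberg adjusted value under 0.467.

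**Figure D1:**
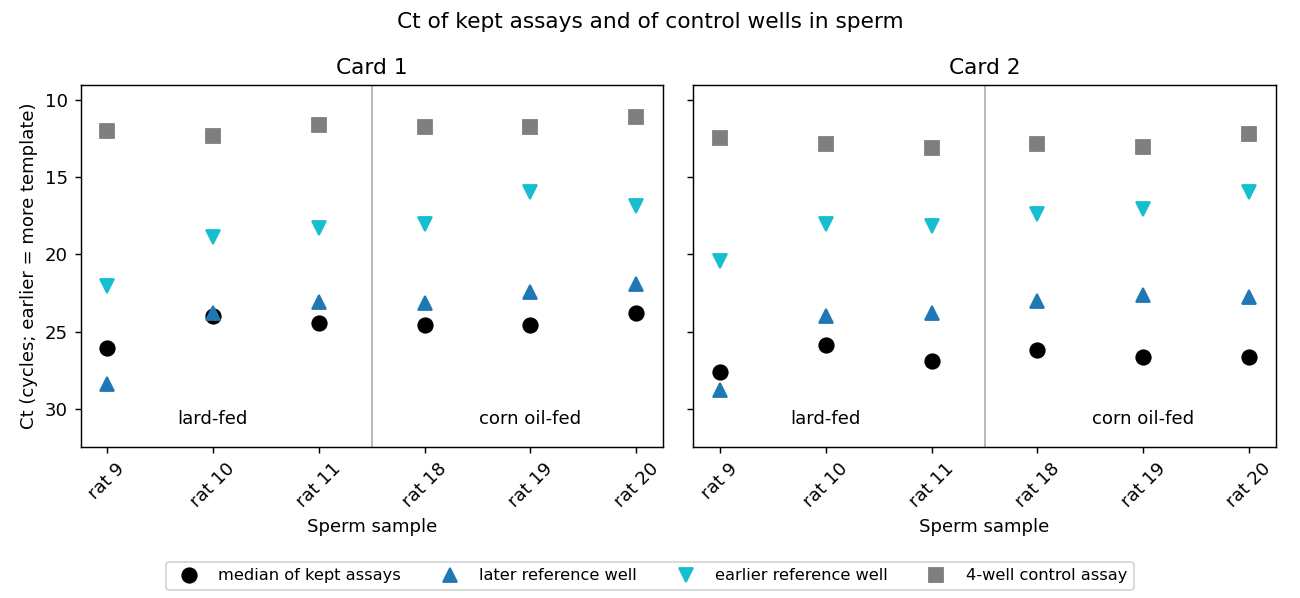
Ct in cycles (vertical axis, inverted so that more template is higher) of the median kept assay, the 4-well control assay and the reference wells in each sperm sample (horizontal axis), for each card. The reference wells of rat 9 lie lowest, with a later reference well at 28.4 on the first card, and the median of the kept assays overlaps between the diets.

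Levels were next expressed free of these wells, as the card's median Ct over the kept assays minus the Ct of the assay, on the log2 scale. On this scale the difference of the reference wells, corn oil minus lard, was 2.08 (later well) and 2.26 (earlier well) on card 1 and 2.45 and 1.77 on card 2, with standard errors of 0.836, 0.713, 0.965 and 0.622. Fitted together with the kept assays in limma, each had an adjusted p of 0.617. The unadjusted limma p-values, in the same order, were 0.034, 0.011, 0.031 and 0.019. Without rat 9 the differences were 1.05 and 1.71 on card 1 and 1.21 and 1.39 on card 2, so this rat carried a large part of them, most for the later wells. A difference as high as that of the reference well was found for 1 of 226 kept assays with either well of the first card, and for 2 and 4 of 174 with the later and the earlier well of the second. Over the 6 rats, both diets together, the reference wells were among the most variable wells, and their SD includes the difference between the diets. An SD as high was found for 11 of 226 kept assays with the later and 12 with the earlier well of the first card. On the second card it was found for 4 and 17 of 174. For the 4-well assay the numbers were 85 of 226 and 69 of 174, and its difference on the first card was -0.06 (95% interval -1.43 to 1.31). It was -0.19 on the second card, and without rat 9 it turned to 0.54 and 0.37.

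Relative to the card median, no kept assay was called as different between the diets after Benjamini-Hochberg adjustment. In limma, 0 of 400 (0% called) had an adjusted p under 0.1, the smallest being 0.685. At an unadjusted p at or below 0.05, 11 assays (2.75%) were lower and 13 (3.25%) higher in corn oil-fed male rats. The first card held 8 of the lower and 9 of the higher among its 226 assays, the second 3 and 4 among its 174. In 22 assays (5.5%) all 3 corn oil-fed rats lay below all 3 lard-fed rats, and in another 22 (5.5%) above them. When the order of the samples is random, 3 samples against 3 separate completely, in either direction, with a probability of 0.1. The share found over both directions was 11%. By rank within each sample, where 1 is the earliest well of the card, 43 assays (10.8%) did not overlap, 19 lower and 24 higher, and 30 of them did not overlap on the log2 scale either, in the same direction. Centring on the median of the same assays, like ranking, fixes a rough balance of the directions, so nothing is read from the split. It also removes a change shared by most assays of a card, so these counts cannot show one.

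The number of assays at an unadjusted p at or below 0.05 moved with the rats entered. There were 6 lower and 7 higher without rat 9, 17 and 17 without rat 10, 22 and 28 without rat 18, 7 and 3 without rat 19, and 4 and 3 without rat 20. None had an adjusted p under 0.1 in any of these fits, nor without rat 11. Relative to the reference wells, the same 400 assays gave 90 lower and 0 higher at an adjusted p under 0.1, with a median difference of -2.20 on the log2 scale, where 98.8% of the assays lay below 0. This count rested on the choice of well, with 175 lower by the earlier well alone and 2 by the later one alone. With rat 9 left out as well, there were 8 lower and 0 higher assays and the median was -1.31. Relative to the card median, the median difference was -0.04, with 53.5% below 0. Neither scale tells a shift shared by most assays from an opposite shift of the reference wells.

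The quartiles of the differences relative to the card median were -0.46 and 0.43 on the log2 scale, and 333 assays (83.2%) differed by less than 1. A difference above 1 was found for 35 assays and below -1 for 32, the extremes being 3.51 and -3.38, and both of these had diets that overlapped. The median standard error was 0.533, so that the median 95% interval reached 1.20 to each side. For 4 assays (1%) the interval lay within 1 to each side, and for 269 (67.2%) within 2. A change of 4 times in either direction was therefore outside the interval for 269 assays, and a change of 2 times for 4. The median SD of an assay was 0.544 over the 3 lard-fed rats and 0.602 over the 3 corn oil-fed rats, and 187 of 400 varied more on lard.

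**Figure D2:**
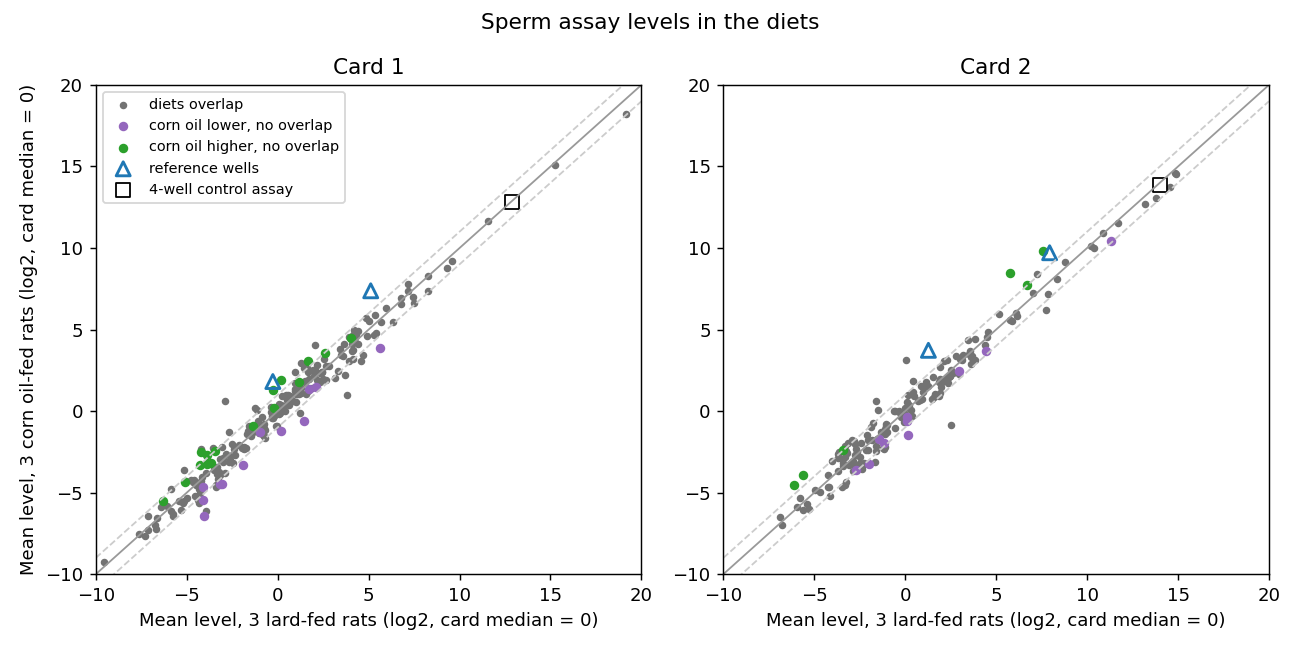
Mean level of each kept assay in 3 lard-fed (horizontal axis) and 3 corn oil-fed rats (vertical axis), log2 with the card median at 0, for each card. Solid lines mark equal levels and dashed lines a difference of 1. The 22 lower and 22 higher assays without overlap lie on either side of the line, and the reference wells lie above it.

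The 4 assays given in full are those with the smallest limma p, 2 in each direction, among assays without overlap. Well 602, on the second card, is an abundant assay. Its Ct was 19.0, 18.7 and 20.1 in rats 9, 10 and 11 on lard and 17.6, 16.01 and 16.4 in rats 18, 19 and 20 on corn oil, and its rank among 174 was 14, 14 and 18 against 11, 9 and 9. On the log2 scale its level was 8.58, 7.25 and 6.83 on lard and 8.60, 10.7 and 10.2 on corn oil. Rats 9 and 18 were almost level, and the separation came from rats 19 and 20. The level was 7.55 ± 0.914 (SD, n = 3) on lard and 9.83 ± 1.09 (SD, n = 3) on corn oil, a difference of 2.28 (standard error 0.676, limma adjusted p = 0.685), and of 0.17 relative to the reference wells.

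Well 604, in the same block of the second card, is a late assay with a Ct of 34.6, 31.3 and 33.0 on lard and 30.8, 31.3 and 31.02 on corn oil. Its level was -6.99, -5.38 and -6.05 in rats 9, 10 and 11, and -4.63, -4.61 and -4.34 in rats 18, 19 and 20. The corn oil-fed rats lay within 0.3 of each other and the lard-fed rats were spread below them, with rat 9 lowest. The difference was 1.61 (standard error 0.513, limma adjusted p = 0.685), and -0.50 relative to the reference wells. In each of the 6 mammary gland samples the Ct of this assay was 35 or later.

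Among the lower assays, well 289 of the first card ranked 174, 192 and 199 among 226 on lard and 208, 206 and 223 on corn oil. Its level was -3.28, -4.14 and -4.80 in rats 9, 10 and 11 and -5.59, -5.55 and -8.18 in rats 18, 19 and 20. Rat 20 lay far below the other corn oil-fed rats. The difference of -2.37 (standard error 0.761, limma adjusted p = 0.685) was -1.50 without rat 20 and -1.10 without rats 9 and 20. Relative to the reference wells it was -4.54, and -3.35 with rat 9 left out, both with a limma adjusted p under 0.1.

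Well 759 of the second card stood near the middle of the profile, with a rank of 72, 96 and 84 among 174 on lard and 100, 132 and 105 on corn oil. Its level was 0.87, -0.58 and 0.22 in rats 9, 10 and 11 and -0.99, -2.33 and -1.14 in rats 18, 19 and 20. Rats 10 and 18 were the nearest across the diets. The difference was -1.65 (standard error 0.564, limma adjusted p = 0.685), and -3.77 relative to the reference wells, with an adjusted p under 0.1. With rat 9 left out the latter was -2.60, and its adjusted p was no longer under 0.1. No cause of any of these differences was tested.

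**Figure D3:**
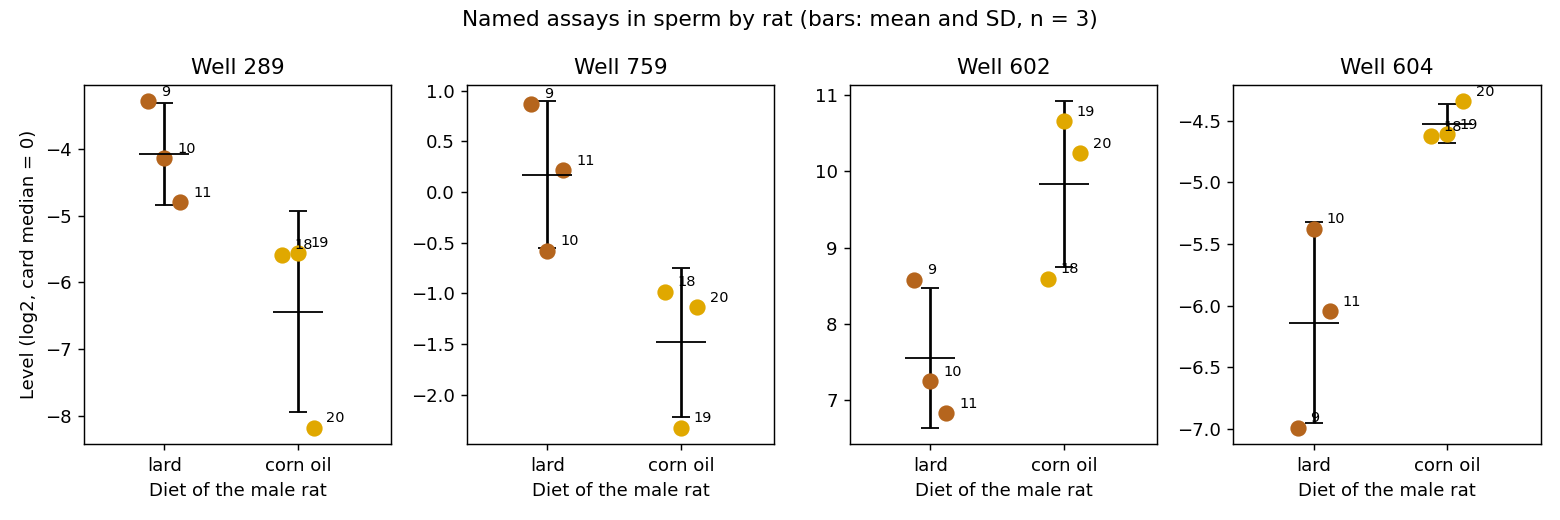
Level (log2, card median at 0) of wells 289, 759, 602 and 604 in each sperm sample, by diet, with rat numbers beside the points and bars for the mean and SD of 3 rats. The diets do not overlap, since the assays were chosen so, and rat 20 in well 289 and rat 18 in well 602 lie apart from the other corn oil-fed rats.

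The order of the assays was compared between samples. Ct spans a wide range over the assays, which by itself makes such correlations high, and single assays moved far in rank. The median range of an assay's rank over the 6 rats was 26.5 of 226 on the first card and 23 of 174 on the second, and the widest were 170 and 134. Spearman's rank correlation over the 226 kept assays of the first card ran from 0.876 (rats 9 and 20) to 0.987 (rats 11 and 18), so both the least and the most similar sperm samples were of different diets. On the second card, over 174 assays, it ran from 0.872 (rats 9 and 19) to 0.962 (rats 10 and 19), again with rats of different diets at both ends. Averaged over the 6 comparisons within a diet it was 0.958 and 0.940 on the cards in turn, and over the 9 comparisons between diets 0.952 and 0.935. The within-diet mean was higher by 0.00627 and 0.00499 (two-sided exact permutation test over samples, p = 0.6 on each card). Without rat 9 these differences were -0.00204 and -0.00321. They also turned negative on the first card without rat 20 (-0.00618) and on the second without rat 19 (-0.00329). Rats 9 and 20 correlated least with the others on the first card, with means of 0.933 and 0.931 against 0.963 to 0.967 for the other 4, and rat 9 on the second, with 0.908.

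**Figure D4:**
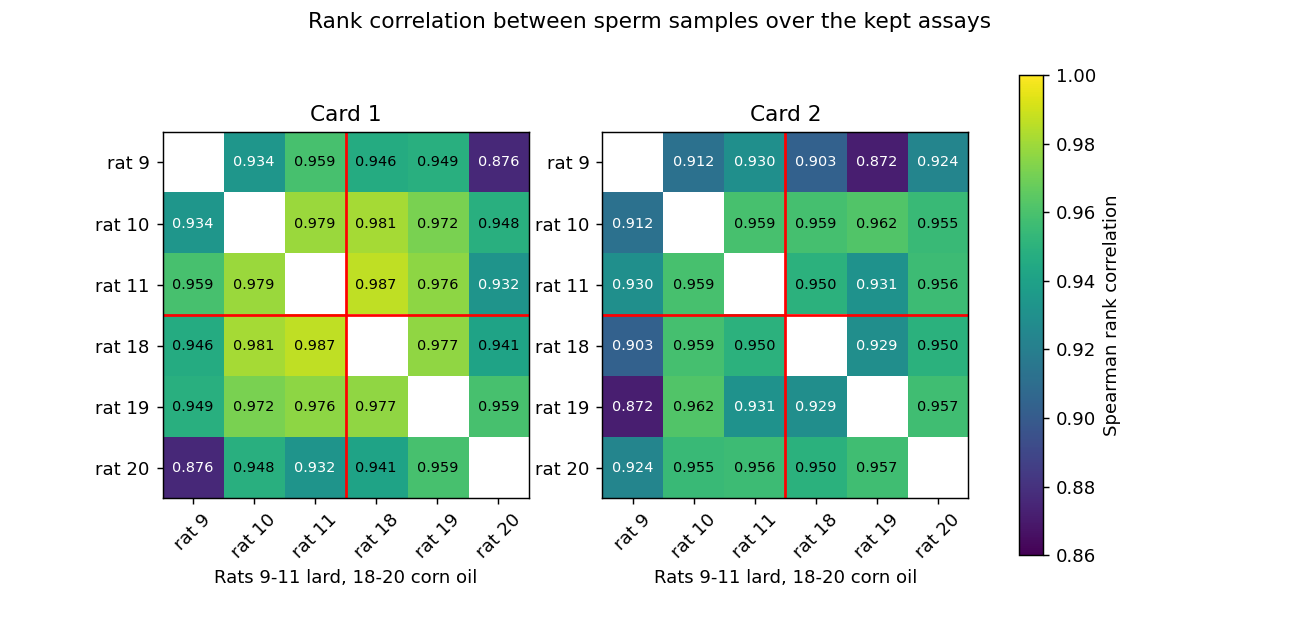
Spearman rank correlation of Ct over the kept assays for every 2 sperm samples, rats 9 to 11 on lard and 18 to 20 on corn oil, with red lines between the diets. Darker cells follow rat 9, and on the first card rat 20, rather than the diet.

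The earliest assays, those with the most template, overlapped in part between the rats. The earliest kept assay of the first card ranked first in all 6 rats, with a Ct between 5.54 and 6.27, and the next had a mean of 9.41. Its Ct was 5.66, 5.92 and 5.54 in rats 9, 10 and 11 on lard and 6.08, 6.02 and 6.27 in rats 18, 19 and 20 on corn oil, without overlap. The card median, which enters its level, moved more, from 23.8 in rat 20 to 26.1 in rat 9. The level was 19.1 ± 1.16 (SD, n = 3) on lard and 18.2 ± 0.567 (SD, n = 3) on corn oil, a difference of -0.93 (95% interval -2.37 to 0.51, limma adjusted p = 0.762). On the first card 12 assays were among the top 20 of all 6 rats, and 31 were so in at least 1 rat. The second card gave 16 and 24. Its earliest assay did not rank first in every rat, with a Ct between 10.2 and 13.5. The difference of that assay was -0.21 (95% interval -1.78 to 1.37, limma adjusted p = 0.945).

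The assays without overlap were counted by level. Within each card the kept assays were split by their mean Ct into 4 classes of near equal size. The median difference between the diets ran from -0.21 in the latest class to 0.14 in the next to earliest class of the first card, and from -0.20 to 0.04 on the second card. The median spread within a diet, as the pooled SD, was 0.756 and 0.786 in the latest class of the first and the second card, and 0.504 to 0.730 in the earlier classes. From the earliest to the latest class, 4, 7, 5 and 12 assays of the first card had diets without overlap, and 6, 0, 5 and 5 of the second.

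Position on the card moved with the level in single rats. Taking 8 blocks of 48 consecutive wells on each card, the median level of the kept assays relative to the 6-rat median was 0.65 and 0.58 in rat 20 in the first 2 blocks of the first card, and -0.56 in its sixth block. In rat 9 it was 0.60 in the sixth block. Rat 19 had 0.57 in the second block of the second card, where rat 9 had -0.38. Rats 10, 11 and 18 lay between -0.24 and 0.31 in every block. The fifth block of the second card held 3 of that card's 4 assays that were higher at an unadjusted p at or below 0.05, among 24 kept. The part of position in the results was not tested beyond centring each block on its own median, under which 0 assays had an adjusted p under 0.1. The differences of wells 289, 759, 602 and 604 were then -3.03, -1.98, 2.33 and 1.66, against -2.37, -1.65, 2.28 and 1.61 relative to the card median.

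**Figure D5:**
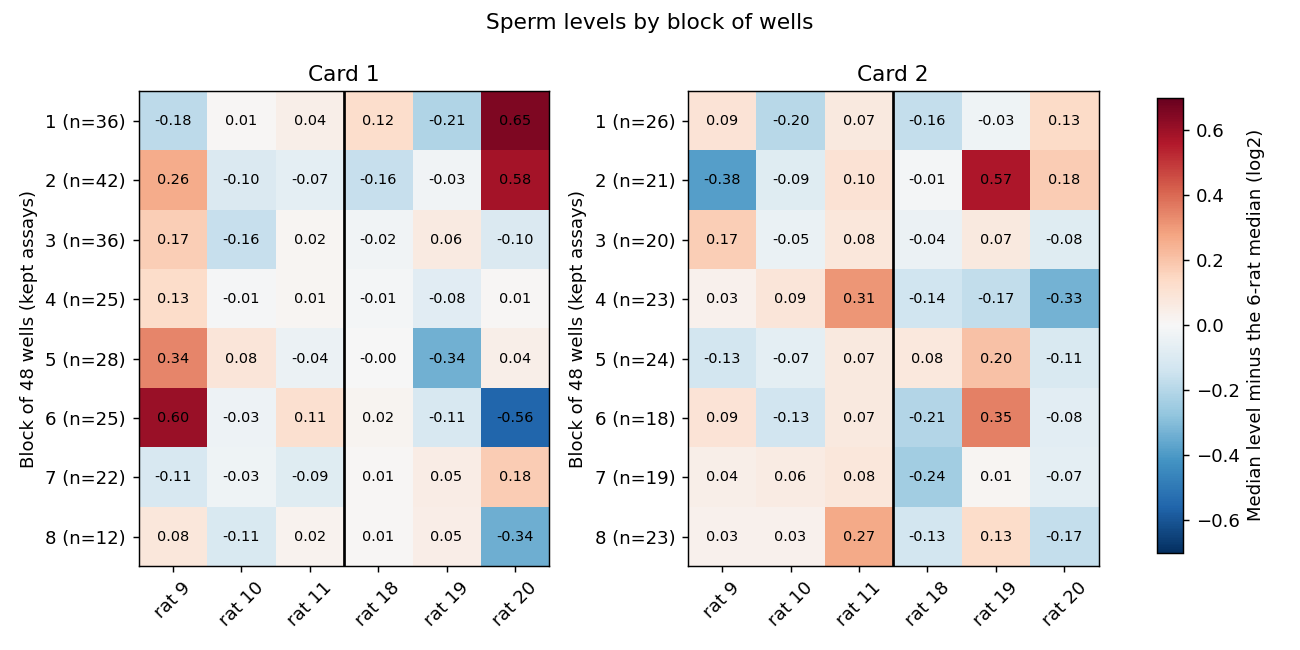
Median level (log2) of the kept assays of each block of 48 wells (vertical axis) minus the median over the 6 rats, for each sperm sample (horizontal axis) and card. The strongest cells are those of rat 20 (0.65) and rat 9 (0.60) on the first card and rat 19 (0.57) on the second.

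The differences in sperm were set against those in the mammary glands of the daughters, over the 262 assays under 35 in all 12 samples, each sample and card centred on its own median. Tested in limma as the interaction term, the difference between the tissues passed an adjusted p under 0.1 in 0 of 262 assays (0%), where the smallest value was 0.270. On raw Ct 2 assays passed, and relative to the 2 reference wells 6. Before adjustment, 23 (8.78%) were at or below 0.05. The median size of the difference between the diets was 0.42 in sperm and 0.55 in the mammary gland on the log2 scale. Of the named assays only well 289 was under 35 in all 12 samples, with -2.48 in sperm and -0.99 in the mammary gland (interaction -1.49, limma adjusted p = 0.575). Wells 759, 602 and 604 were not under 35 in 2, 1 and 6 of the mammary gland samples and were left out.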

How the data were processed

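miRNA levels were measured with TaqMan rodent microRNA cards after reverse transcription and preamplification. The labels name Trizol and the methods a column kit for the RNA. Ct values were deposited by the authors for all wells with no normalization applied, and 40 stands for no recorded crossing. How baseline and threshold were set is not given in the sources used here. Fold changes of corn oil over lard, which the authors deposited too, were not used. The 12 control wells were taken from an earlier analysis of these values and are not named as such in the files or labels used here, and the 4 wells of the 4-well assay hold identical values in every sample.

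Ct was centred on the median of the kept assays of the sample and card, in place of the control normalization of the methods. limma 3.58.1 in R 4.3.3 (lmFit, eBayes) was fitted to the 6 sperm samples, two-sided, with Benjamini-Hochberg adjustment over 400 assays. Calls used an adjusted p under 0.1 and an unadjusted p at or below 0.05. Per-sample values were compared by exact permutation tests. Other references, detection limits, fits and the removal of each rat were tried as alternatives. The fit was tested on simulated data. Named assays were the 2 of smallest p in each direction without overlap. The members, lists and tests were chosen with earlier results of these data known. Planned lists of named miRNAs could not be used, as the wells have no names. Ct compared between assays also depends on the efficiency of each assay, and the number of samples limits the precision.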

Additional observations from a re-analysis of the deposited data

How the results depend on the processing

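The reference decided the counts. Against 11 lower and 13 higher assays at an unadjusted p at or below 0.05, 22 lower and 22 higher without overlap and 0 at an adjusted p under 0.1, the 2 reference wells gave 174 lower and 0 higher, 195 lower and 0 higher without overlap, and 90 lower at an adjusted p under 0.1. With rat 9 left out too, the 2 wells gave 83 and 0, 195 and 1, and 8. The earlier reference well alone gave 191 and 0, 202 and 0, and 175, and the later one 114 and 0, 169 and 0, and 2. The 4-well assay alone gave 5 lower and 2 higher, with 18 lower and 4 higher without overlap, and raw Ct 3 and 5, with 13 lower and 15 higher without overlap. Well 604 turned to -0.50, -0.16 and -0.84 with both, the earlier and the later reference well, and to -0.11 with both and rat 9 left out, and well 602 to -0.175 with the later one. There were 26 lower and 24 higher with sample weights, whose estimation stopped short of its tolerance, 7 and 8 in one fit over 12 samples, 7 lower by the methods' t-test (9 higher, 0 after adjustment), 7 lower with assays under 35 in at least 3 rats, and 22 lower and 10 higher without overlap with a Ct under 30. No setting other than the reference wells gave an adjusted p under 0.1 in the diet comparison.

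With each rat left out in turn, lower assays ranged from 4 to 22 and higher from 3 to 28, and those without overlap from 33 to 65 and from 25 to 72, where fewer samples overlap less by construction. The median Ct difference ranged from -0.918 to 0.0987 on the first card and from -0.751 to 0.0984 on the second. On the cards in turn, the difference in the number of detected assays ranged from -1 to 4.5 and from 3 to 7.5. The within minus between rank correlation ranged from -0.00618 to 0.0155 and from -0.00329 to 0.0187. Without rats 9 and 20 there were 6 lower and 5 higher, 56 and 51 without overlap, median Ct differences of 0.352 and 0.0180, a detected difference of -1.5 and an interquartile range difference of -0.000386 on the first card. On the second card the interquartile range difference, -0.305, was 0.208 with a Ct under 32. Assays whose diet difference was itself different between the tissues at an adjusted p under 0.1, 0 relative to the card median, numbered 2 on raw Ct and 6 with the reference wells. The settings with a single control well, without rats 9 and 20, and with both reference wells without rat 9 were chosen after seeing the data. No paired analysis was possible because the rats of the diets share no numbers. Of the other recomputed values, 165 over all assays and 91 of named assays kept their direction and their side of the threshold, counts within 1.5 times, and 5 of named assays passed an adjusted p under 0.1, all with reference wells. The cause was not tested for any of these changes.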
